A study of Danio rerio with 12 samples.

Results

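The set of thyroid axis genes holds 10 genes of zebrafish, of which 9 are described here: tshba, which encodes the beta subunit of thyrotropin, the thyroid gland genes tg and slc5a5, the deiodinase genes dio1, dio2 and dio3b, and the thyroid hormone receptor genes thraa, thrab and thrb. They were chosen by gene name among the 26873 genes of the deposited files. RNA sequencing was done on whole larvae of wild-type genotype 5 days post fertilization, after waterborne exposure from day 2 to day 5 to perfluorooctanesulfonate (PFOS), a persistent fluorinated surfactant. There were 4 groups of 3 libraries, a control without PFOS and doses of 0.03 ppm, of 0.3 ppm and of 1 ppm, with 0.2% DMSO as solvent in every group, and each dose is compared with the same control libraries. Each library pooled 10 larvae, so differences between single larvae are averaged within it. The labels do not say whether the replicates came from separate clutches or tanks, and each p therefore measures the spread between these libraries, which may be technical.

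In this axis thyrotropin from the pituitary drives the thyroid follicles, where the iodide carrier of slc5a5 takes up iodide, which is then attached to thyroglobulin, the product of tg. The gland releases mostly thyroxine, and the deiodinases then set the active hormone in the tissues: the dio2 enzyme forms triiodothyronine, the dio3b enzyme inactivates both hormones, and the dio1 enzyme can do either. The receptors are nuclear proteins that bind DNA with retinoid X receptors and act on target genes with or without hormone. In zebrafish the larva begins to make its own hormone during the exposure window used here, after a phase supplied by the yolk.

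The deposited values are whole-number normalised counts, which total 24061372 to 31907243 per library. The listed marker genes of liver, epidermis, neurons and muscle were all above 0 in every library. Libraries of replicate 2 stood apart: the 15 epidermis markers took 7.50% to 10.2% of all normalised counts in them and 4.35% to 6.90% in the other libraries. Control replicate 1 stood apart as well, at -61.9 on the second principal component, where the next lowest library was at -15.7, and with 0.166% of normalised counts from the 13 neuron and brain markers, beside 0.05% to 0.139% in the others. Liver marker transcripts, 20 genes, took 1.15% to 1.48% in the control and 1.70% to 1.99% at 1 ppm. They took 1.24% to 1.64% at 0.03 ppm and 1.46% to 2.05% at 0.3 ppm, where replicate 3 was the highest of all libraries. A few abundant apolipoprotein genes weigh most in this share: in control replicate 1 apoa2 had 157671 and apoa1b 74061 of the 381867 normalised counts of the list. In RNA from whole larvae, fewer cells of a type and less RNA per cell cannot be told apart. For single genes, 7 of the 10 members passed the filter of at least 10 normalised counts in at least 3 libraries and were tested among the 22320 genes that passed it. tshba and slc5a5 did not pass it.

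No member was called at any dose. At a Benjamini-Hochberg adjusted p under 0.05, limma called 0 of the 7 at 0.03 ppm, against 0.0582% of all genes tested, 0 at 0.3 ppm, against 0.13%, and 0 at 1 ppm, against 0.139%. The contrast of all 3 doses with the control called 0 of them, against 0.188% of all genes, and the slope over the order of the groups 0, against 0.0134%. At an unadjusted p under 0.05 in limma there were 0 members at 0.03 ppm, against 3.49% of all genes, and 0 at 0.3 ppm, against 2.82%. There were 2 at 1 ppm, dio1 and thraa, against 4.74%, 0 with the doses together, against 4.35%, and 3 in the slope, where dio3b joined them, against 5.56%. With the replicate number as a block, dio3b had an unadjusted p under 0.05 at 1 ppm too, and no member was called. The share of all genes at an unadjusted p under 0.05 was not taken for that fit. At 1 ppm the block called more of all genes than the fit without it, so the shares above do not serve for it. The libraries of a dose stood clear of the control libraries for 0 members at 0.03 ppm, beside 7.4% of all genes, for 0 at 0.3 ppm, beside 7.09%, and for dio1 and thraa at 1 ppm, beside 8.75%. The median log2 fold change of the 7 was -0.02 at 0.03 ppm, -0.01 at 0.3 ppm and -0.14 at 1 ppm, beside -0.02, -0.01 and -0.01 over all genes tested.

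**Figure D1:**
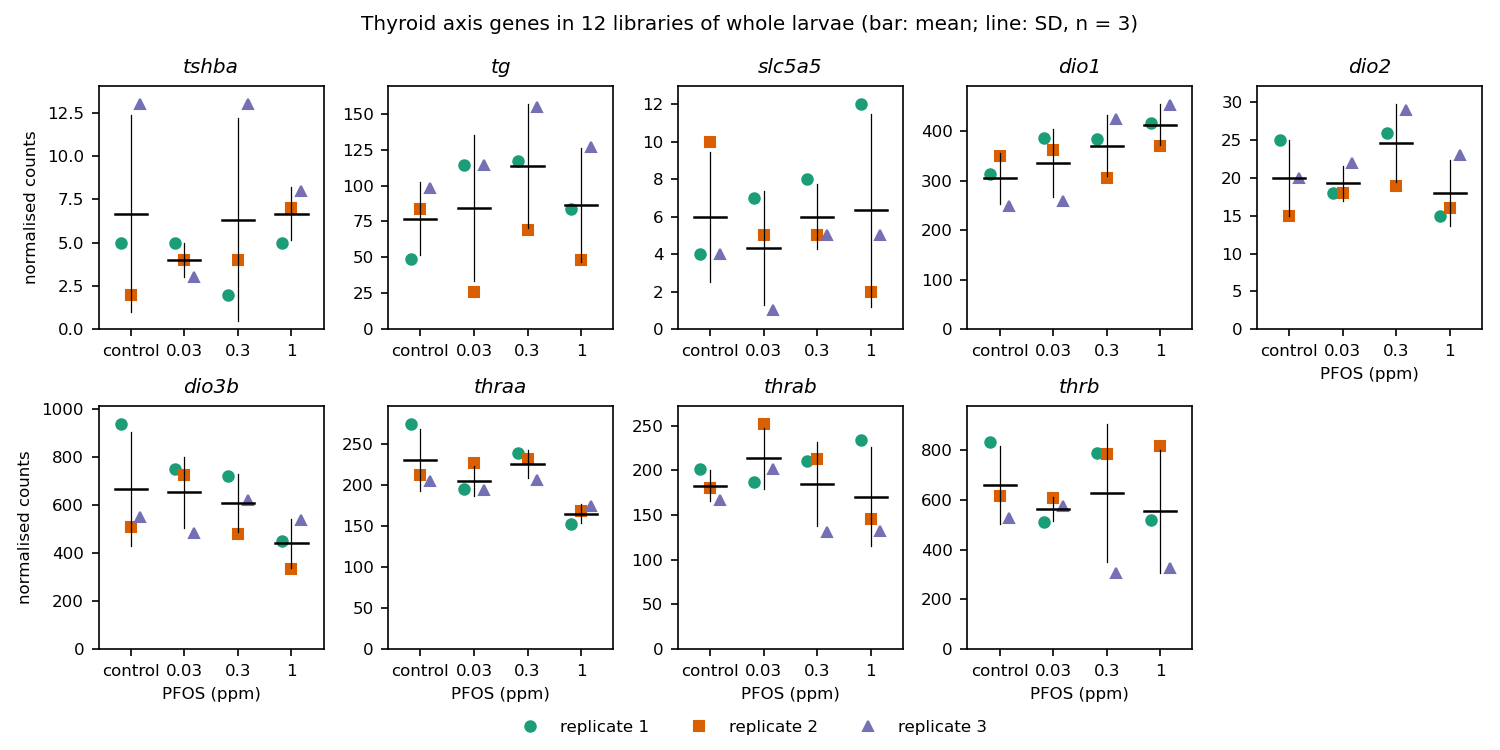
Normalised counts (y axis, from 0) of 9 thyroid axis genes in each library by PFOS concentration (x axis, ppm), with symbols for the replicate numbers, bars for group means and lines for the SD of 3 libraries. At 1 ppm thraa lies between 152 and 174, below all other libraries, and dio1 lies between 371 and 454, above the control libraries.

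Of the pituitary hormone, little was read. tshba (ENSDARG00000033726) had 5, 2 and 13 normalised counts in control replicates 1, 2 and 3, 5, 4 and 3 at 0.03 ppm, 2, 4 and 13 at 0.3 ppm and 5, 7 and 8 at 1 ppm. The control range alone covered every other library. Over the 12 libraries the gene summed to 71 normalised counts. In a fit without the filter its log2 fold change at 1 ppm was 0.26 with a 95% confidence interval from -1.06 to 1.57, though the group mean was 6.67 both in the control and at 1 ppm. The interval is wide at such low values, and changes within it in either direction are compatible with them.

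Thyroglobulin spanned the widest range of the tested members, 5.96-fold between its lowest and highest library. tg (ENSDARG00000020084) stood at 49, 84 and 98 normalised counts in the control libraries, 114, 26 and 114 at 0.03 ppm, 117, 69 and 155 at 0.3 ppm and 84, 48 and 127 at 1 ppm. At each dose the replicate 2 library was the lowest and in the control replicate 1 was, and the groups overlapped at every dose. Group means were 77.0 ± 25.2 (SD, n = 3) in the control and 84.7 ± 50.8, 114 ± 43.1 and 86.3 ± 39.6 at the rising doses. The highest mean was thus at 0.3 ppm and the lowest in the control, and no neighbours in this order differed beyond their spread. log2 fold changes were -0.08 (95% confidence interval -1.262 to 1.105), 0.54 (-0.65 to 1.72) and 0.11 (-1.07 to 1.30), with adjusted p of 0.998, 1 and 1 from limma. At 0.03 ppm the sign on the log2 scale went against the means, and without replicate 2 of that dose, at 26, the value was 0.62. Without the replicate 2 libraries, which carried the most epidermis transcripts, the log2 fold changes were 0.71, 0.95 and 0.57, with limma adjusted p of 0.958, 0.938 and 0.834. Over the 12 libraries tg and the mean log2 level of the epidermis markers had a Pearson r of -0.62, and the part of those transcripts in the values of tg was not tested.

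The iodide carrier was close to the limit of what the libraries show. slc5a5 (ENSDARG00000005392) had 4, 10 and 4 normalised counts in the control libraries, 7, 5 and 1 at 0.03 ppm, 8, 5 and 5 at 0.3 ppm and 12, 2 and 5 at 1 ppm. The dosed libraries overlapped the control at every dose, and the 12 libraries summed to 68 normalised counts. Fitted without the filter, the log2 fold change at 1 ppm was -0.08 (95% confidence interval -1.41 to 1.25).

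Among the deiodinases, dio1 was higher and dio3b lower in the group means at each rising dose, though the test called neither. For dio3b the order below 1 ppm rested on a single control library, replicate 1. dio1 (ENSDARG00000042112) read 314, 351 and 250 normalised counts in the control libraries, 387, 363 and 259 at 0.03 ppm, 385, 305 and 425 at 0.3 ppm and 417, 371 and 454 at 1 ppm. All libraries of 1 ppm lay above the control, while both lower doses overlapped it. The means were 305 ± 51.1, 336 ± 68.0, 372 ± 61.1 and 414 ± 41.6 (SD, n = 3), and each overlapped its neighbour in this order. At 1 ppm the log2 fold change was 0.45 (SE 0.196, 95% confidence interval 0.02 to 0.87, unadjusted p = 0.0405 and adjusted p = 1 from limma). The libraries did not overlap and were higher at 1 ppm for 4.41% of all genes tested. At 0.03 and 0.3 ppm the log2 fold changes were 0.13 and 0.28 (adjusted p = 0.998 and 1 from limma), and the slope per step of dose was 0.15 (unadjusted p = 0.0193, adjusted p = 0.813).

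Transcripts of the liver, an organ that expresses dio1 in vertebrates, stood higher in the same libraries. The mean log2 level of the 20 liver markers was 11.69, 11.89 and 11.16 over the control libraries and 12.22, 12.08 and 12.22 over the 1 ppm libraries in replicate order, and 19 of the 20 had a positive log2 fold change at 1 ppm, with a median of 0.66, although limma called 0 of them and 6 had an unadjusted p under 0.05. Control replicate 3 was the lowest library both for these markers and for dio1. The log2 level of dio1 minus this mean was -3.39, -3.43 and -3.19 in the control libraries, -3.02, -3.34 and -3.63 at 0.03 ppm, -2.95, -3.09 and -3.63 at 0.3 ppm and -3.52, -3.54 and -3.39 at 1 ppm. The ranges of all groups overlapped. Over the 12 libraries Pearson's r between dio1 and the marker mean was 0.78, a description of libraries that share their depth and their larvae. Leaving out control replicate 3 brought the log2 fold change of dio1 at 1 ppm to 0.31 (unadjusted p = 0.168 and adjusted p = 1 from limma), and leaving out replicate 3 in every group brought it to 0.24. The part of the liver transcripts in the difference of dio1 was not tested.

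**Figure D2:**
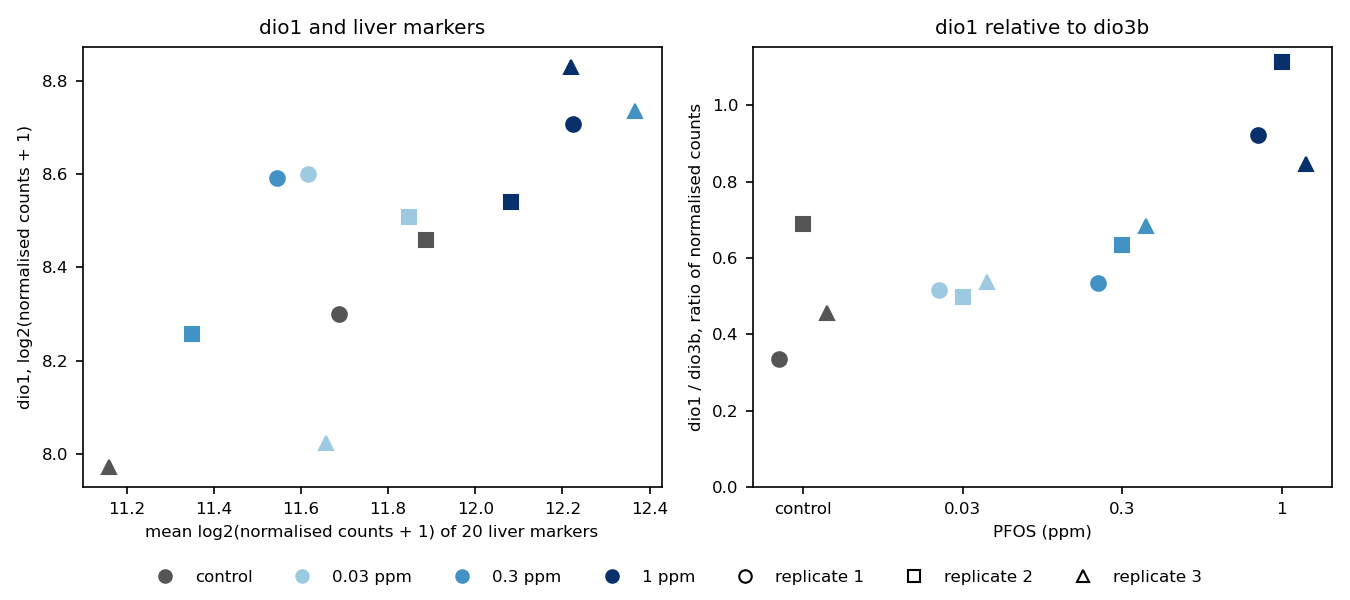
Left, log2(normalised counts + 1) of dio1 (y axis) against the mean over 20 liver markers (x axis) in the 12 libraries; right, the ratio of dio1 to dio3b normalised counts (y axis, from 0) by PFOS concentration (x axis, ppm). Control replicate 3 is lowest in both measures of the left panel, and in the right panel the 1 ppm libraries lie between 0.847 and 1.11, above the other 9.

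dio2 (ENSDARG00000094857), the activating deiodinase, read 25, 15 and 20 normalised counts in the control libraries, 18, 18 and 22 at 0.03 ppm, 26, 19 and 29 at 0.3 ppm and 15, 16 and 23 at 1 ppm. No group stood apart from another. The means were 20 ± 5, 19.3 ± 2.31, 24.7 ± 5.13 and 18 ± 4.36 (SD, n = 3), highest at 0.3 ppm and lowest at 1 ppm. Its log2 fold changes were -0.02, 0.30 and -0.14 at the rising doses, with 95% confidence intervals of -0.69 to 0.64, -0.37 to 0.96 and -0.81 to 0.53 and limma adjusted p of 0.998, 1 and 1.

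dio3b (ENSDARG00000095767), the inactivating deiodinase, read 938, 509 and 549 normalised counts in the control libraries, 748, 727 and 482 at 0.03 ppm, 720, 480 and 622 at 0.3 ppm and 452, 333 and 536 at 1 ppm. Control replicate 1, the library with the highest share of neuron and brain markers, was far above the other controls, and 1 ppm replicate 3 lay within the control range. Over the 12 libraries dio3b and the mean log2 level of those markers had a Pearson r of 0.30, and the part of neural transcripts in dio3b was not tested. The means were 665 ± 237, 652 ± 148, 607 ± 121 and 440 ± 102 (SD, n = 3), and neighbours in this order overlapped. The log2 fold change at 1 ppm was -0.57 (95% confidence interval -1.15 to 0.02, unadjusted p = 0.0554 and adjusted p = 1 from limma), after -4.2e-05 and -0.10 at the lower doses. With the replicate number as a block, the interval was -1.04 to -0.09 (unadjusted p = 0.0234 and adjusted p = 0.471 from limma). Its slope per step of dose was -0.18 (unadjusted p = 0.0482, adjusted p = 0.893). Without control replicate 1 the log2 fold change at 1 ppm was -0.29. At 0.03 and 0.3 ppm it was then 0.28 and 0.18, so the lower means at these doses did not hold without that library. By replicate number, 1 ppm differed from the control by -1.05, -0.61 and -0.03 in replicates 1, 2 and 3.

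The ratio of dio1 to dio3b joins these values within each library. It was 0.335, 0.690 and 0.455 in the control, 0.517, 0.499 and 0.537 at 0.03 ppm, 0.535, 0.635 and 0.683 at 0.3 ppm and 0.923, 1.11 and 0.847 at 1 ppm. The 1 ppm libraries lay above the other 9. The ratio was formed after the values of both genes had been seen and carries no test. Since it is not corrected for transcript length, only its change between libraries can be read.

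Of the receptors, thraa had the lowest p among the members at 1 ppm. thraa (ENSDARG00000000151) read 274, 212 and 205 normalised counts in the control libraries, 195, 226 and 194 at 0.03 ppm, 239, 231 and 206 at 0.3 ppm and 152, 168 and 174 at 1 ppm. The 1 ppm libraries lay below all the other 9, which was so for 0.112% of all genes tested, and below the control alone for 4.33%. The comparison with all the other 9 was picked after the values had been seen, and its share carries no test. Means were 230 ± 38.0, 205 ± 18.2, 225 ± 17.2 and 165 ± 11.4 (SD, n = 3). In the order of the means the control, 0.3 ppm and 0.03 ppm overlapped, and 1 ppm came last, with no overlap. At 1 ppm the log2 fold change was -0.47 (SE 0.160, 95% confidence interval -0.82 to -0.13, unadjusted p = 0.0116 and adjusted p = 0.846 from limma). It was -0.16 at 0.03 ppm and -0.02 at 0.3 ppm, and the slope per step was -0.13 (unadjusted p = 0.0328, adjusted p = 0.877). By replicate number, 1 ppm differed from the control by -0.85, -0.33 and -0.24 on the log2 scale. Since the 2 groups do not overlap, no pairing could have given another sign. Without control replicate 1, the highest library, the log2 fold change was -0.34 (unadjusted p = 0.0543 and adjusted p = 0.813 from limma), and without replicate 1 in every group it was -0.28.

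thrab (ENSDARG00000052654), the duplicate of thraa in the zebrafish genome, did not share its order. It read 201, 180 and 167 normalised counts in the control libraries, 187, 252 and 201 at 0.03 ppm, 210, 213 and 131 at 0.3 ppm and 234, 145 and 132 at 1 ppm. Each dose overlapped the control. The means were 183 ± 17.2, 213 ± 34.2, 185 ± 46.5 and 170 ± 55.5 (SD, n = 3), and neighbours in their order overlapped. Its log2 fold changes were 0.22, -0.01 and -0.14 at the rising doses (95% confidence intervals -0.32 to 0.75, -0.55 to 0.52 and -0.68 to 0.39). The difference between the changes of the duplicates was not tested.

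thrb (ENSDARG00000021163), the beta receptor, which is also expressed in cone photoreceptors, had its widest spread within the higher doses. It read 834, 617 and 527 normalised counts in the control libraries, 512, 606 and 577 at 0.03 ppm, 790, 786 and 306 at 0.3 ppm and 519, 816 and 326 at 1 ppm. Replicate 3 at 0.3 ppm and at 1 ppm held the lowest values of all, and both doses overlapped the control. The means were 659 ± 158, 565 ± 48.1, 627 ± 278 and 554 ± 247 (SD, n = 3), and neighbours in their order overlapped. The log2 fold changes were -0.20, -0.17 and -0.32 (95% confidence intervals -1.005 to 0.606, -0.98 to 0.63 and -1.13 to 0.48, each with a limma adjusted p of 0.998 or 1). Without the lowest library of each, the log2 fold change was 0.28 at 0.3 ppm and 0.0078 at 1 ppm.

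**Figure D3:**
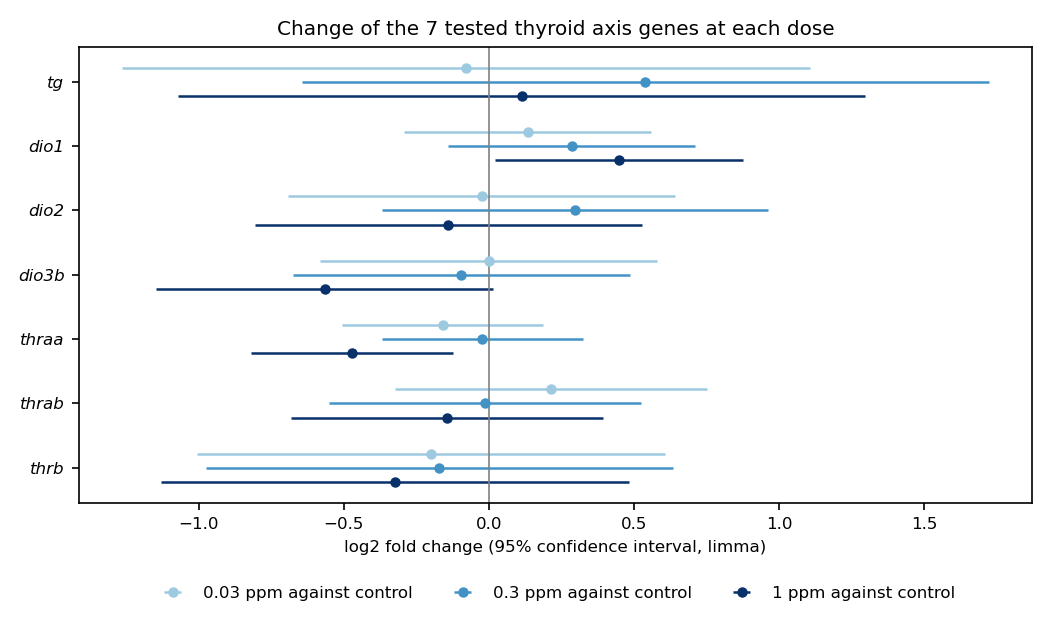
log2 fold changes against the control (x axis) of the 7 tested members (y axis) at 0.03, 0.3 and 1 ppm, points for limma estimates and lines for 95% confidence intervals. The fit had no replicate block; the intervals of dio1 and thraa at 1 ppm leave out 0 before adjustment, at 0.45 and -0.47, and all the others drawn include it.

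The 7 tested members did not move as a unit over the 12 libraries. Among their 21 pairs, the highest Pearson r of log2 values was 0.72, between dio3b and thraa, which was 0.59 after group means were taken out. The pair thrab and thrb followed with 0.56. The lowest was -0.58, between tg and thrb. For dio1 and dio3b it was 0.03, and 0.62 once group means were taken out. These coefficients are descriptions of libraries that share depth, larvae and a small number of replicates.

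For each tested member the 3 most alike genes were sought by Pearson's r over the 12 libraries among 15341 named genes with a mean of at least 50 normalised counts. tg was most like tnni2a.1 (r = 0.97), a troponin gene, pvalb7 (0.97), a parvalbumin gene, and ppp1r1c (0.95). tnni2a.1 had 282 normalised counts in 0.03 ppm replicate 2 and 1503 in 0.3 ppm replicate 3, the same libraries in which tg was lowest and highest. dio1 was most like aldh7a1 (0.93), an aldehyde dehydrogenase gene, lbh (0.90) and cyp1a (0.90), a cytochrome gene induced by aryl hydrocarbon receptor ligands. cyp1a read 397, 397 and 299 normalised counts in control libraries and 617, 409 and 616 in those exposed to 1 ppm.

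dio2 came closest to aldh1a3 (0.86), rps19bp1 (0.85) and gmcl1 (0.85), and dio3b to ankrd33aa (0.90), rngtt (0.88), the messenger RNA capping enzyme gene, and rx1 (0.84), a retinal homeobox gene. rx1 stood at 557 normalised counts in control replicate 1 and 197 in 1 ppm replicate 2, where dio3b had its highest and lowest values too. thraa was most like rspry1 (0.90), PKHD1L1 (0.85) and snx8b (0.84). thrab was most like grb10b (0.94), an adaptor gene of insulin signalling, sema4ab (0.93), a semaphorin gene, and insrb (0.92), an insulin receptor gene. thrb was most like nktr (0.96), a cyclophilin gene, pcf11 (0.95), of messenger RNA cleavage, and srsf6b (0.95), a splicing factor gene. nktr was at 958 and 972 normalised counts in replicate 3 of 0.3 and 1 ppm, where thrb was lowest too, and at 1757 to 2064 in the control libraries. Each r is the highest of many and has no p. High and low libraries shared with a member follow from that choice, also for tnni2a.1 and cyp1a, and add nothing to r.

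**Figure D4:**
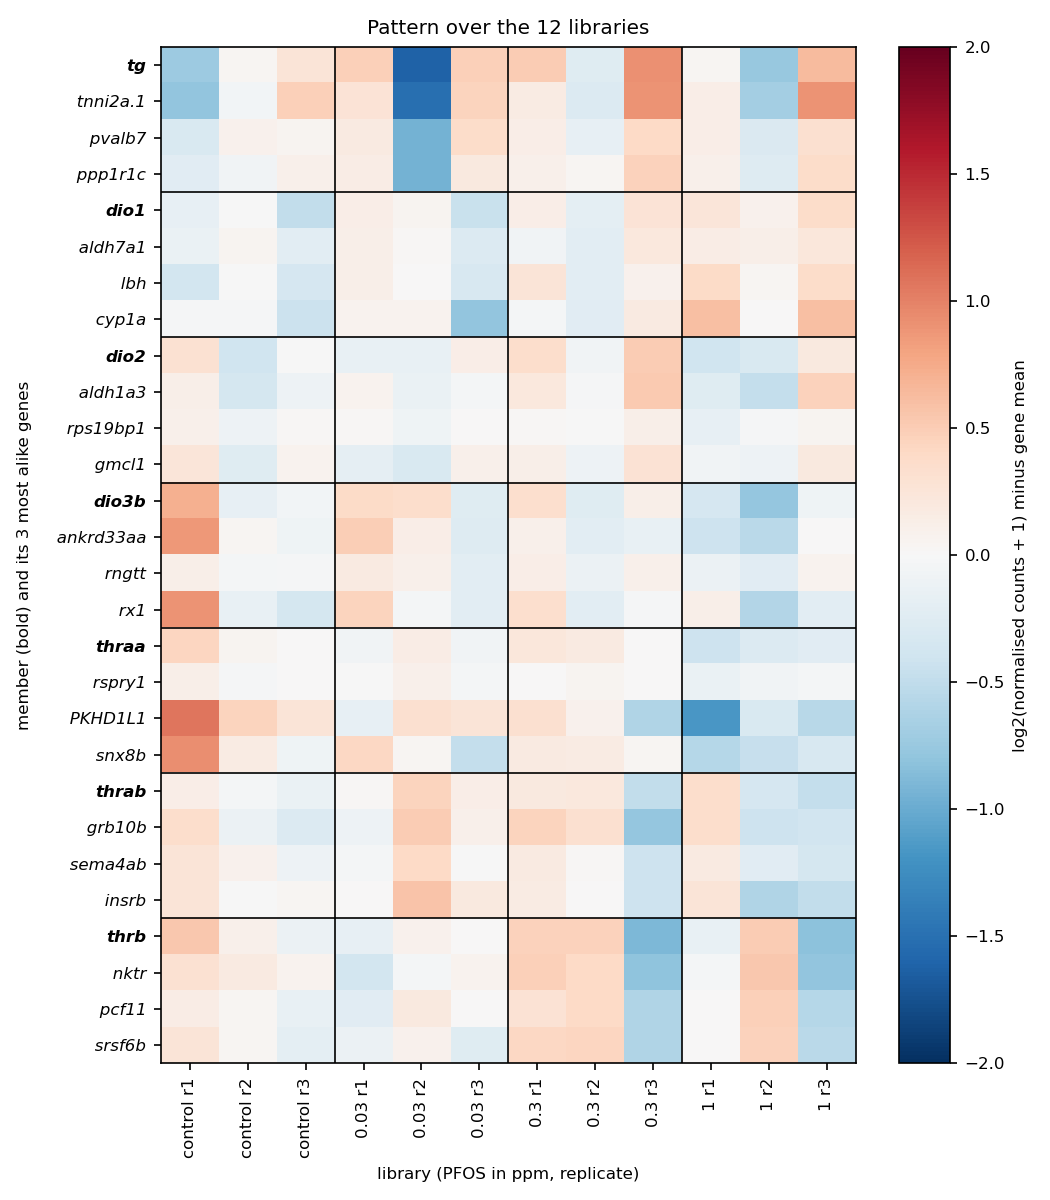
log2(normalised counts + 1) minus the gene mean (colour, from -2 to 2) of the 7 tested members, in bold, and their 3 most alike genes (rows) in the 12 libraries (columns, by PFOS in ppm and replicate). The thrb rows are lowest in replicate 3 of 0.3 and 1 ppm, and the tg rows in 0.03 ppm replicate 2.

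Around the members, 7 lists of other axis genes held 93 names, of which 82 were in the files and 75 passed the filter. limma called 0 of the 75 in each of the 5 comparisons. At an unadjusted p under 0.05 there were 3 at 0.03 ppm (4%, beside 3.49% of all genes tested), 3 at 0.3 ppm (4%, beside 2.82%) and 6 at 1 ppm (8%, beside 4.74%). There were 4 with the doses together (5.33%, beside 4.35%) and 7 in the slope (9.33%, beside 5.56%). The libraries did not overlap the control for 6 genes at 0.03 ppm (8%, beside 7.4% of all genes), 8 at 0.3 ppm (10.7%, beside 7.09%) and 14 at 1 ppm (18.7%, beside 8.75%). Under library weights only some axis genes, picked for a small p at 1 ppm, were looked at, and IYD, slc5a8 and sult1st3 were called. That setting called 768 of all genes tested at 1 ppm, against 31 without weights. The lists were written with earlier results of these data known, and the shares are given as a description.

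Among 10 tested genes of hypothalamic and pituitary control, 6 had a higher and 4 a lower estimate at 1 ppm, with a median of 0.07. cga, which encodes the alpha subunit shared by thyrotropin and the gonadotropins, ranged from 35 to 39 normalised counts in the control and from 38 to 51 at 1 ppm. gata2a, a transcription factor of thyrotropes in mammals, ranged from 171 to 244 and from 177 to 267, and the corticotropin-releasing hormone receptor gene crhr1 from 161 to 267 and from 148 to 240. All of these overlapped. Of the other pituitary hormones, 6 were tested, 3 with a higher and 3 with a lower estimate. Growth hormone, gh1, ranged from 85 to 193 in the control and from 53 to 142 at 1 ppm, the somatolactin gene smtlb from 5 to 24 and from 2 to 8, and pomcb from 7 to 14 and from 8 to 21. The 9 listed pituitary hormone genes summed to 168 to 349 normalised counts in the control and 152 to 322 at 1 ppm. Over the 12 libraries tg followed their mean log2 level with r = 0.70 and dio2 with r = 0.69. That mean includes lhb, fshb and smtla, which did not pass the filter, and each r is a description.

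Of 11 tested genes of thyroid hormone synthesis and gland development, 10 had a higher estimate at 1 ppm, with a median of 0.19, after 3 of 11 at 0.03 ppm and 5 of 11 at 0.3 ppm. These are signs on the log2 scale, and not every such gene differed in its group means. The mean of nkx2.1 was lower at 1 ppm than in the control (48.7 and 49.7). That of nkx2.4b was 18.3 in both, and that of pax8 was 82.7 and 81.7. Over all genes tested the share with a higher estimate was 46.6%, 48.8% and 48.3% at the rising doses. Of 13 neuron and brain markers 0 had a higher estimate at 0.03 ppm, 1 at 0.3 ppm and 9 at 1 ppm, with medians of -0.34, -0.20 and 0.04. The gland list holds factors that are also expressed in the brain, such as nkx2.1, nkx2.4b and pax2a, and the part of neural transcripts in its counts was not tested. IYD (ENSDARG00000076056), the deiodinase that recovers iodide from iodotyrosines, had 51, 57 and 39 normalised counts in control libraries and 103, 59 and 81 in those exposed to 1 ppm. These did not overlap, as for 8.75% of all genes tested, and the log2 fold change was 0.69 (SE 0.300, limma unadjusted p = 0.0383 and adjusted p = 1). Without replicate 1 in every group it was 0.54. At 0.03 ppm IYD read 88, 66 and 67, also above the control, as 7.4% of all genes did not overlap there. At 0.3 ppm it read 63, 47 and 100, with overlap. HHEX, a homeobox factor of thyroid, liver and other foregut organs, ranged from 9 to 11 in the control and from 15 to 17 at 1 ppm (adjusted p = 1 from limma). slc5a8 (ENSDARG00000087120), a sodium-coupled monocarboxylate carrier gene of kidney and gut as well, differed by -1.24 on the log2 scale (SE 0.447, limma unadjusted p = 0.0165 and adjusted p = 0.867), at 29 to 96 in the control and 15 to 32 at 1 ppm. Without control replicate 2, the highest, it was -0.83.

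Hormone transport and clearance, with 14 tested genes, split evenly at 1 ppm into 7 higher and 7 lower estimates, with a median of 0.09. The cytosolic sulfotransferase gene sult1st3 (ENSDARG00000018361) read 357, 345 and 305 normalised counts in the control libraries, 526, 489 and 257 at 0.03 ppm, 523, 403 and 435 at 0.3 ppm and 586, 555 and 508 at 1 ppm. Every library at 0.3 and 1 ppm lay above the control, and 0.03 ppm replicate 3 lay below it. The log2 fold change at 1 ppm was 0.71 (SE 0.231, limma unadjusted p = 0.00916 and adjusted p = 0.746). Its relative sult1st5 (ENSDARG00000003475) read 135, 169 and 115 in the control, 87, 135 and 78 at 0.03 ppm, 74, 92 and 101 at 0.3 ppm and 74, 110 and 76 at 1 ppm. Every library at 0.3 and 1 ppm lay below the control. At 1 ppm the estimate was -0.69 (log2 fold change, SE 0.255, limma unadjusted p = 0.0188 and adjusted p = 0.887). Groups did not overlap for 7.09% of all genes tested at 0.3 ppm and 8.75% at 1 ppm. sult1st3 and sult1st5 belong to a family of similar copies, between which the assignment of reads is less certain. ugt1a1, a glucuronosyltransferase that conjugates bilirubin and thyroxine in mammals, ranged from 3563 to 4468 in the control and from 4861 to 6725 at 1 ppm, at 0.59 on the log2 scale (adjusted p = 1 from limma).

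Of 21 tested receptor partners and coregulators, 6 had a higher and 15 a lower estimate at 1 ppm, with a median of -0.11. At 0.3 ppm 7 were higher and 14 lower, with a median of -0.11 as well, after 12 higher and 9 lower at 0.03 ppm. Over all genes tested the share with a higher estimate was 46.6%, 48.8% and 48.3% at the rising doses. The corepressor gene ncor1 read 2576, 1995 and 2129 normalised counts in control libraries and 1947, 1650 and 1607 in those exposed to 1 ppm. The groups did not overlap, and the log2 fold change was -0.36 (limma unadjusted p = 0.0427 and adjusted p = 1). tbl1xr1a, of the same corepressor complex, ranged from 1067 to 1139 in the control and from 936 to 964 at 1 ppm (log2 fold change -0.22). The coactivator gene ncoa1 ranged from 467 to 615 and from 335 to 522, with overlap (log2 fold change -0.47).

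Of 7 tested genes regulated by thyroid hormone or its receptors, 4 had a higher and 3 a lower estimate at 1 ppm, with a median of 0.10. The red cone opsin gene opn1lw1, which in zebrafish depends on thrb, ranged from 58 to 107 normalised counts in the control and from 39 to 75 at 1 ppm. The myelin genes mbpb and plp1a ranged from 2957 to 3605 and from 206 to 353 in the control, and from 3529 to 4194 and from 215 to 370 at 1 ppm. All 3 overlapped the control at 1 ppm. At 0.3 ppm opn1lw1 read 50, 23 and 57, below the control libraries at 107, 78 and 58, with a log2 fold change of -0.94 (limma unadjusted p = 0.0294 and adjusted p = 1). The libraries did not overlap at that dose for 7.09% of all genes tested. The far more abundant red opsin gene opn1lw2 read 7863, 6562 and 9970 at 0.3 ppm and 11364, 6628 and 7583 in the control, with overlap. klf9, a target of the receptors in fish, frogs and mammals, was singled out after its values were seen. It read 1412, 958 and 1436 in the control and 1684, 1272 and 859 at 1 ppm, and so overlapped as well.

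The deiodinases are selenoproteins. All 6 tested genes listed for selenoprotein synthesis and selenium supply had a higher estimate at 1 ppm, with a median of 0.12. At 0.03 and 0.3 ppm 4 and 5 of the 6 did. Over all genes tested the share was 46.6%, 48.8% and 48.3% at the rising doses. Some of the 6 hardly differed: the mean of eefsec was 295 both in the control and at 1 ppm, and that of secisbp2 was 190 and 191. sepp1a, which encodes the selenium carrier of plasma, made mainly in the liver in mammals, read 22237, 26577 and 27319 normalised counts in control libraries and 40001, 28463 and 39100 in those exposed to 1 ppm. The groups did not overlap, and the log2 fold change was 0.49 (limma unadjusted p = 0.0456 and adjusted p = 1). Without replicate 1 in every group it was 0.31. The higher share of liver transcripts at 1 ppm stood beside this value too, and its part in it was not tested. sephs1 and sepsecs ranged from 534 to 622 and from 145 to 182 in the control. At 1 ppm they ranged from 576 to 681 and from 154 to 192. Of these, sepsecs serves the making of selenocysteine, and sephs2 was listed but not matched by name.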

How the data were processed

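Messenger RNA was sequenced from 12 pools of larvae, 3 per group. Per the submitters' processing notes, CASAVA, STAR 2.5.1b, RSEM 1.2.28 and DESeq2 1.10.1 were used with build GRCz10, whose roles are not given in the sources used here. The deposited values are treated as a score: normalised counts that the authors rounded to whole numbers, so read depth per library is unknown and no count model was run. The table of the whole series repeats the values of the single libraries and was not used.

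Values were tested as log2(value + 1), a scale that understates the change of low genes, with limma 3.58.1 in R 4.3.3 and a mean-variance trend, on all 12 libraries with group as the only term. Genes that reached 10 in 3 or more libraries entered the test. Comparisons were each dose against the control, the 3 doses together against it, and a slope over the order of the groups. p-values are two-sided and adjusted by Benjamini-Hochberg over all genes tested, with calls under 0.05. An exact permutation test of 3 against 3 libraries cannot go below 0.1 and was not used for calls. Figures used Python 3.11.15 and matplotlib 3.10.9. The fits were also run on simulated data, with each gene drawn independently and no shift shared between genes of a library. That setting differs from these libraries, and no result here rests on it.

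The members and lists were chosen with earlier results of these data known. The rule named all members, of which 1 is not reported here. From each list of axis genes the rule named every called gene or, with none, up to 3 with the smallest p at 1 ppm; for each tested member it named the 3 genes most alike in log2 value. Equal replicate numbers came from the labels. Deviations from group means correlated between same-numbered libraries by 0.119 to 0.478 for 1 ppm and control. They did so by 0.145 to 0.286 for 0.3 ppm and 0.0776 to 0.291 for 0.03 ppm. Between differently numbered libraries the highest was 0.204 for 1 ppm, -0.0106 for 0.3 ppm and 0.226 for 0.03 ppm. Same-numbered pairs thus stood above all others only at 0.3 ppm, and pairing at the other doses is uncertain. On the first principal component, with 28.0% of the variance, replicate 2 of every group lay between 31.8 and 50.0. The highest of the other libraries was at 8.09. The cause of that shared position was not tested. Alternatives covered pseudocount, filter, scaling, replicate block, variance trend, library weights, groups in the fit, dose scale and each library or replicate number left out. No sequence or coordinate is given.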

Additional observations from a re-analysis of the deposited data

How the results depend on the processing

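No member was called under the alternatives in any comparison, except 1 member at 1 ppm with library weights, which was dio1 (log2 fold change 0.69, limma adjusted p = 0.0379). Only some of the other axis genes, picked for a small p at 1 ppm, were looked at under that setting. Of these it called IYD (1.05, limma adjusted p = 0.0293), slc5a8 (-1.48, 0.0233) and sult1st3 (0.81, 0.0403) at 1 ppm. Those weights gave control replicate 3 a weight of 5.74 and control replicate 1 one of 0.355, and called 768 genes of all tested at 1 ppm against 31. With the replicate block, which treats equal numbers as pairs, the members called stayed at 0 in every comparison. At 1 ppm thraa then had a limma adjusted p of 0.379, dio3b 0.471 and dio1 0.533. The block called 20, 43, 58, 78 and 9 of all genes at 0.03, 0.3 and 1 ppm, with the doses together and in the slope, where 13, 29, 31, 42 and 3 were called without it.

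Signs turned mostly where values were near 0. With library weights the log2 fold changes became 0.025, 0.087 and 0.029 for dio2, dio3b and thrb at 0.03 ppm, 0.10, 0.14, 0.19 and 0.27 for dio3b, thraa, thrab and thrb at 0.3 ppm, and 0.019 for thrab at 1 ppm. With equal library totals they became 0.031 for dio2 and 0.059 for dio3b at 0.03 ppm. The cause was not tested.

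Libraries were left out singly or by replicate number in every group. The range over these fits at 0.03 ppm was -0.72 to 0.71 for tg, -0.0026 to 0.31 for dio1 and -0.21 to 0.19 for dio2. At that dose it was -0.26 to 0.28 for dio3b, -0.28 to 0.0063 for thraa and -0.36 to 0.052 for thrb. At 0.3 ppm it was -0.26 to 0.18 for dio3b, -0.10 to 0.11 for thraa, -0.14 to 0.21 for thrab and -0.43 to 0.28 for thrb. At 1 ppm it was -0.22 to 0.57 for tg, -0.32 to 0.14 for dio2, -0.39 to 0.016 for thrab and -0.69 to 0.0078 for thrb, and for dio3b with the doses together -0.39 to 0.055. At 1 ppm dio3b (-0.83 to -0.29) kept its sign. The ranges of dio1 (0.24 to 0.63) and thraa (-0.59 to -0.28) could not cross 0, since their 1 ppm libraries did not overlap the control.

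Calls over all genes ranged with a library left out from 0 to 11 at 0.03 ppm, 0 to 31 at 0.3 ppm, 0 to 47 at 1 ppm, 0 to 60 with the doses together and 0 to 30 in the slope. With only the 2 groups compared they were 3, 10 and 3 at the rising doses. A filter of 50 left dio2 out. Read depth is unknown, and tshba and slc5a5 lie too low for their differences to be detectable.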
